A study of Mus musculus with 4 samples.

Results

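The transcripts of 10 JmjC histone demethylases were examined in induced regulatory T (iTreg) cells cultured with or without ferrous sulfate. The genes were Kdm2a, Kdm2b, Kdm4a, Kdm5a, Kdm5b, Kdm5c, Kdm6a, Kdm6b, Phf8 and Phf2, chosen by name as iron-dependent demethylases that are not standard hypoxia targets. The choice was made with earlier results of these data known. Each matched a row by its mouse Ensembl identifier, 10 of the 47729 gene rows in the table. All 10 passed the filter on low counts, which kept 13732 genes.

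The labels give the spleen of C57BL/6 mice as the source of the cells, which were differentiated in vitro, while the general culture methods of the study name lymph nodes beside the spleen. Both groups shared a medium that held 100 U/mL of IL-2, 5 ng/mL of TGF-β, and blocking antibodies against IFN-γ and against IL-4 at 5 µg/mL. Per the culture methods, the cells were stimulated through CD3 and CD28 with antibodies. FeSO4 cells received 50 µM ferrous sulfate and Mock cells received PBS, each for 4 days. Each group had 2 libraries, which the study's methods describe as pairs of samples taken from independent experiments. The reporting summary names 6 to 8 weeks as the general age of the mice. The labels do not give the age or sex of the mice, or say whether cells were pooled or sorted for Foxp3 before RNA was taken.

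JmjC demethylases remove methyl groups from lysines of histones. Each cycle of the reaction uses oxygen and 2-oxoglutarate and needs a ferrous iron ion held in the catalytic center, so these enzymes belong to the same large class of iron enzymes as the prolyl hydroxylases that mark HIF proteins for degradation. Transcript counts measure the supply of message for these enzymes and not their activity or their iron loading. In T cells, demethylases of lysine 27 and lysine 4 of histone H3 are known to shape which lineage genes can be transcribed.

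Gene rows held 35183187 to 40859178 reads per library. Levels are given in CPM, which divides a count by the size of its library, here adjusted by the trimmed mean of M values (TMM), and a count of 3, the limit that a count of 0 allows, was worth 0.0717 to 0.0876 CPM. The libraries carried the T cell transcripts Cd4 (at least 605.7 CPM in each) and Il2ra, and Foxp3 was lower in FeSO4 (log2 fold change -0.60). Markers of other cell types were uneven. Of B cell genes, Ms4a1 had 0 or 1 read in each library, Cd79b 12 to 29, Cd79a 69 to 107 and Ighm 6666 to 10177. Of NK cell genes, Ncr1 and Klrb1c had 0 reads, Eomes 19 to 44 and Klrk1 29 to 83, and of CD8 T cell genes, Cd8a had 25 to 94 and Cd8b1 304 to 361. Of myeloid genes, Itgam, Csf1r and Cd14 had 0 to 7 reads, Adgre1 8 to 29 and Cst3 3642 to 4350, and of erythroid genes, Alas2 had 4 to 16 and Hba-a1 820 to 1284. Mock replicate 1 held 156 reads of the B cell gene Igkc and 164 of the myeloid gene Lyz2, against at most 8 of either in the other libraries. Ighm, Klrk1, Cst3 and Hba-a1 were higher in FeSO4 (log2 fold changes 0.68, 1.58, 0.37 and 0.66), and their part in the results below was not tested. Fewer cells of a type and less RNA per cell cannot be told apart in such bulk samples.

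To show promoter DNA, windows of 250 bases were read. They were those of the 7 of the 10 genes with a promoter entry (Kdm2b, Kdm4a, Kdm5b, Kdm5c, Kdm6a, Phf8 and Phf2). The windows of Kdm5b and Phf2 ended where the annotated gene begins. Those of Phf8, Kdm4a and Kdm5c reached into the gene. The windows of Kdm2b lay inside the gene or reached into it, and that of Kdm6a lay inside it. Phf8 and Kdm5b are printed because they had the lowest fold changes of the set, and Phf2 because its fold change was nearest to 0. Capitals mark ACGTG, the core of the HIF binding element, searched on both strands. The sequences run 5′ to 3′ on the strand of the gene, from RefSeq on build GRCm38.p6: chrX:151520422-151520671 (plus strand) for Phf8, chr1:134559928-134560177 (plus strand) for Kdm5b and chr13:48870886-48871135 (minus strand) for Phf2.
Phf8: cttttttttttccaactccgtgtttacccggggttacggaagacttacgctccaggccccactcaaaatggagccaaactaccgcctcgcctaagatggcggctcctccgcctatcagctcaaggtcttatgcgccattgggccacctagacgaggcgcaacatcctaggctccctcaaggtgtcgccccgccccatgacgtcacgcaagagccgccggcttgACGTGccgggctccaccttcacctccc
Kdm5b: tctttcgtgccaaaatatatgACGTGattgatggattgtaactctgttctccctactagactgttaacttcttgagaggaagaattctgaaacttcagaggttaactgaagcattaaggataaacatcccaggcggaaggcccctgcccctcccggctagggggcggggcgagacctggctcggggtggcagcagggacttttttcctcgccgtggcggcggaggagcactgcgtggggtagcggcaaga
Phf2: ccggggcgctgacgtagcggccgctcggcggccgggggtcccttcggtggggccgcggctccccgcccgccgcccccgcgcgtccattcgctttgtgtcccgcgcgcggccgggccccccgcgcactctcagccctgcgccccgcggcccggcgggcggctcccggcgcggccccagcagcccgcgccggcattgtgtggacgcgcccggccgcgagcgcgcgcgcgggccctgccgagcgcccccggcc

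The core stood once in the Phf8 window, within the annotated gene, and once in the Kdm5b window, in front of the gene. The window of Kdm6a held it 3 times, including both strands of an E-box (CACGTG), which reads the same on either strand. That window (chrX:18162325-18162574, plus strand) lay inside the annotated gene, which starts at 18160862. It was not found in the windows of Kdm2b (4 entries), Kdm4a, Kdm5c and Phf2. Of 32851 mouse promoter windows of this length, 16.6% held ACGTG and 6.02% held CACGTG. Phf8 also had TGACGTCA, the cyclic AMP response element, which was present in 1.55% of the windows. The Phf2 window carried 50 CG dinucleotides against 10 in that of Kdm5c, 12 in that of Kdm4a, 13 in that of Kdm5b, 15 in that of Kdm6a, 19 in that of Phf8 and 12 to 38 in the 4 of Kdm2b, and the median of all windows was 6. A match of letters describes the sequence and shows no binding.

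Message for the demethylases was lower in FeSO4 for 5 of the 10 genes and higher for none, at an adjusted p under 0.05 from edgeR's quasi-likelihood test over all 13732 genes. The 5 genes were Phf8, Kdm5b, Kdm6b, Kdm4a and Kdm5c, and their mean levels fell by 14.8 to 25.6%. At an unadjusted p under 0.05, 6 of the 10 were lower and 0 higher by edgeR, and DESeq2 called 4 lower and 0 higher after adjustment. Over all genes, 9.17% were called lower and 10.9% higher. The fold changes of the 10 genes were all negative, with a median of -0.20 on the log2 scale against -0.0005 over all genes. In 8 of the 10, both FeSO4 libraries lay below both Mock libraries, an order found in 29.4% of all genes. At the threshold of the study (unadjusted p under 0.05 and a log2 fold change of at least 0.5 in size), 0 of the 10 were called in either direction by edgeR, and 0 by DESeq2. Of all genes, edgeR called 5.73% lower at this threshold.

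**Figure D1:**
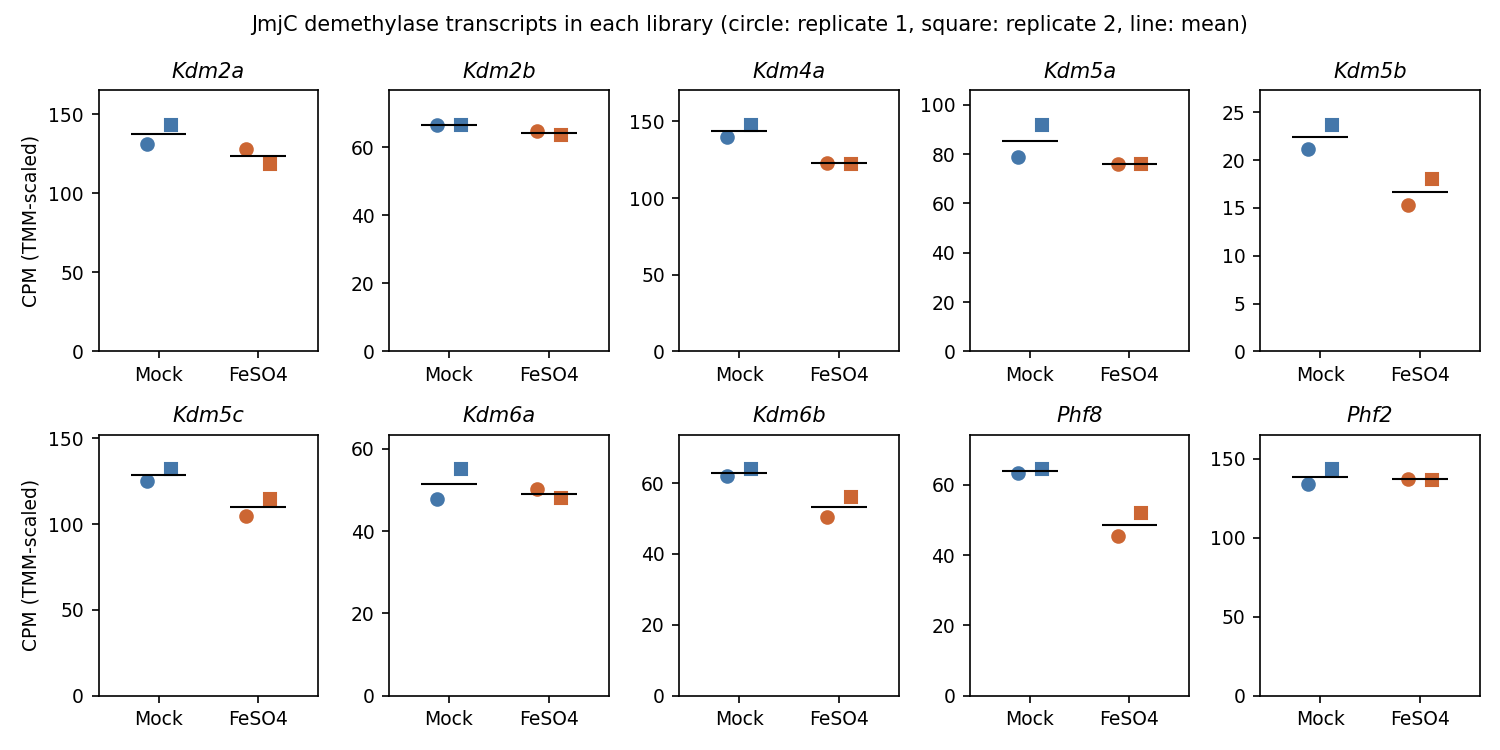
Level of each demethylase in CPM (linear axes from 0, a scale for each panel) in the 2 Mock and 2 FeSO4 libraries, with the group mean as a line. Both FeSO4 libraries sit below both Mock libraries in 8 of the 10 panels, and the groups overlap for Kdm6a and Phf2.

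The calls depended on the libraries and on the correction of fold changes. The median log2 fold change of the 10 was -0.17 without FeSO4 replicate 1 and -0.14 without Mock replicate 2. None of the 10 was called after fold changes were corrected for exon length and GC content, and their median log2 fold change was then -0.03 (at an unadjusted p under 0.05, edgeR had 2 lower and 1 higher). Of all genes, 5.9% were called lower in that fit. Without FeSO4 replicate 1 none was called (4 lower at an unadjusted p under 0.05), and without Mock replicate 2 only Phf8 was called. Over all genes, 5.99% and 5.47% were called lower in these 2 fits. Without the filter on low counts none was called (5 lower at an unadjusted p under 0.05), and the median log2 fold change of the 10 was -0.20. The calls over all genes then fell from 1259 to 304 lower and from 1491 to 524 higher.

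**Figure D2:**
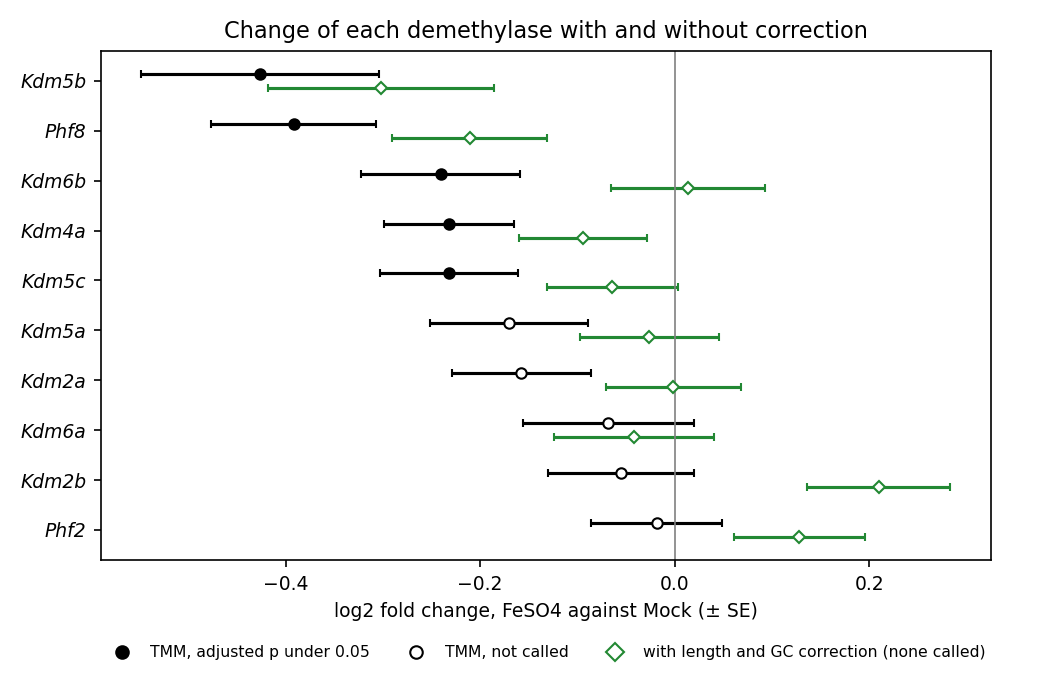
Log2 fold change of FeSO4 against Mock with its standard error for each demethylase, as scaled (circles, filled where the adjusted p was under 0.05) and after correction for exon length and GC content (open diamonds). The 5 filled circles lie between -0.23 and -0.43, and with the correction Kdm2b (0.21), Phf2 (0.13) and Kdm6b (0.01) lie above 0.

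Among the demethylases of the KDM7 family, which bind trimethylated lysine 4 through a PHD finger, Phf8 fell and Phf2 did not pass the test. Kdm7a of the same family did not pass either (log2 fold change -0.07, edgeR adjusted p = 0.753). The differences between these genes were not tested. PHF8 removes methyl marks from lysine 9 of H3 and lysine 20 of H4. Phf8 (chrX:151520641-151633859 on GRCm38.p6, with no exon overlap with another gene) was at 63.29 and 64.54 CPM in Mock replicates 1 and 2 and at 45.33 and 52.03 CPM in FeSO4 replicates 1 and 2. The Mock libraries lay close together and both FeSO4 libraries were lower. The log2 fold change was -0.39 ± 0.08 (SE, n = 2 per group; edgeR adjusted p = 0.00367), a change of -23.8% in the mean. Of the 10 genes, Phf8 alone also passed an adjusted p under 0.01. It kept its call in 13 of 17 alternative fits, and the 4 that lost it were the fit without the filter (adjusted p = 0.0709), without FeSO4 replicate 1 (0.0535), and with the length and GC correction without or with the replicate block (0.0783 and 0.0768).

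Phf2 encodes a relative that acts on lysine 9 of H3. Its level was 133.7 and 143.6 CPM in the Mock libraries against 137.4 and 136.5 CPM with FeSO4. Both FeSO4 values fell between the Mock values, and the log2 fold change was -0.02 ± 0.07 (edgeR adjusted p = 0.887), with a 95% interval from -0.16 to 0.12. Phf2 (chr13:48801750-48870885) had the highest level per length of the set.

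The KDM5 enzymes, which remove methyl groups from lysine 4 of H3, included 2 genes that fell. Kdm5b, also called PLU-1 or JARID1B, was at 21.15 and 23.72 CPM in the Mock libraries against 15.3 and 18.05 CPM with FeSO4. Both FeSO4 libraries were lower, and the log2 fold change was -0.43 ± 0.12 (edgeR adjusted p = 0.0206). Of 17 alternative fits, 11 kept the call. Kdm5b was the demethylase with the fewest reads, 524 in FeSO4 replicate 1 and 992 in Mock replicate 2. Its level in FeSO4 replicate 1 before TMM scaling was 14.9 CPM with a 95% Wilson interval of 13.7 to 16.2, which covers counting error only.

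Kdm5c lies on the X chromosome (chrX:152233198-152279102) and has a Y-linked copy, Kdm5d. Kdm5c was at 125.3 and 132.2 CPM in the Mock libraries against 104.9 and 114.4 CPM with FeSO4, so the groups did not overlap. The log2 fold change was -0.23 ± 0.07 (edgeR adjusted p = 0.0293), and 10 of 17 alternative fits kept the call. Kdm5d, at 45.6 and 49.95 CPM in the Mock libraries against 40.54 and 44.6 CPM with FeSO4, had a log2 fold change of -0.17 and did not pass the test (edgeR adjusted p = 0.211). Reads of Kdm5d and of the Y-linked Ddx3y (64.89 to 79.07 CPM) were present in all 4 libraries, while the other libraries held 1 to 10 reads of Xist and Mock replicate 1 held 98.

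Kdm5a, known as the retinoblastoma-binding protein RBP2, was at 79.02 and 91.99 CPM in the Mock libraries against 76.13 and 75.86 CPM with FeSO4. The Mock libraries differed from each other by more than Mock replicate 1 differed from FeSO4. The log2 fold change was -0.17 ± 0.08 and did not pass (edgeR adjusted p = 0.155). It was -0.29 and called lower without Mock replicate 1 (adjusted p = 0.0288), -0.06 without Mock replicate 2, and called lower with library size alone (adjusted p = 0.0492). Exons of Kdm5a share 276 bases with Ccdc77 on the opposite strand, and whether the counting used strand is not given in the sources used here.

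The demethylases of lysine 27 of H3, the mark laid down by Polycomb repressive complex 2 (PRC2), differed in their calls, though the difference between them was not tested. Kdm6b (JMJD3) was at 61.94 and 64.06 CPM in the Mock libraries against 50.53 and 56.06 CPM with FeSO4. The groups did not overlap and the log2 fold change was -0.24 ± 0.08. Its call was the one closest to the threshold (edgeR adjusted p = 0.0459), and it was lost in 10 of 17 alternative fits. Kdm6b shares 286 exon bases with 1700064E03Rik on the opposite strand.

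Kdm6a (UTX) escapes X inactivation and is a subunit of the KMT2C and KMT2D methyltransferase complexes. It was at 47.79 and 55.17 CPM in the Mock libraries against 50.15 and 48.11 CPM with FeSO4, so both FeSO4 values stood between those of Mock. The log2 fold change was -0.07 ± 0.09 (edgeR adjusted p = 0.641). Its Y-linked copy Uty was at 11.66 and 18.1 CPM in the Mock libraries against 13.11 and 15.56 CPM with FeSO4, with overlapping groups as well.

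Of the demethylases that act on lysine 36 of H3, Kdm4a fell. KDM4A (JMJD2A) removes trimethyl marks from lysine 9 and lysine 36. Its message was at 139.8 and 147.9 CPM in the Mock libraries against 122.8 and 122.2 CPM with FeSO4, and the FeSO4 libraries were nearly equal. The log2 fold change was -0.23 ± 0.07 (edgeR adjusted p = 0.0212), and 9 of 17 alternative fits kept the call.

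Kdm2a and Kdm2b encode CXXC proteins that bind unmethylated CpG islands, where KDM2B recruits a variant Polycomb repressive complex 1. Kdm2a was at 131.4 and 143.4 CPM in the Mock libraries against 127.8 and 118.6 CPM with FeSO4, with a log2 fold change of -0.16 ± 0.07 (edgeR adjusted p = 0.136) that was called lower only with library size alone (adjusted p = 0.034). With 1 library left out, the value for Kdm2a ranged from -0.23 (without Mock replicate 1) to -0.09 (without Mock replicate 2). Kdm2b was at 66.5 and 66.65 CPM in the Mock libraries against 64.62 and 63.51 CPM with FeSO4, with a log2 fold change of -0.06 ± 0.07 (edgeR adjusted p = 0.657). In both genes the FeSO4 libraries were below the Mock libraries, by a small margin. With the length and GC correction, Kdm2a was at -0.0016 and Kdm2b at 0.21, and neither was called (edgeR adjusted p = 0.992 and 0.0583). Kdm2b overlaps A930024E05Rik and Orai1 over 206 exon bases on the opposite strand.

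The levels of the genes were compared per kb of exon, since a longer transcript collects more reads. This length merges the exons of all transcripts of a gene and can exceed that of any single transcript. The effect of this on the order was not tested. In order of the mean over the libraries, the level ran from Phf2 (26.4 CPM per kb in Mock and 26.0 in FeSO4) and Kdm4a (24.9 and 21.2) through Kdm2a (18.0 and 16.2) and Kdm5c (18.1 and 15.4) to Kdm6b (9.06 and 7.66). Kdm6a, Phf8, Kdm5a and Kdm2b followed at 5.64 to 6.86 CPM per kb in Mock, and Kdm5b was lowest (2.90 and 2.15). The ranges over the 4 libraries overlapped between neighbors except from Kdm4a to Kdm2a, Kdm5c to Kdm6b, Kdm6b to Kdm6a and Kdm2b to Kdm5b. Phf8 stood at place 6 by its mean in Mock and at place 9 in FeSO4.

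**Figure D3:**
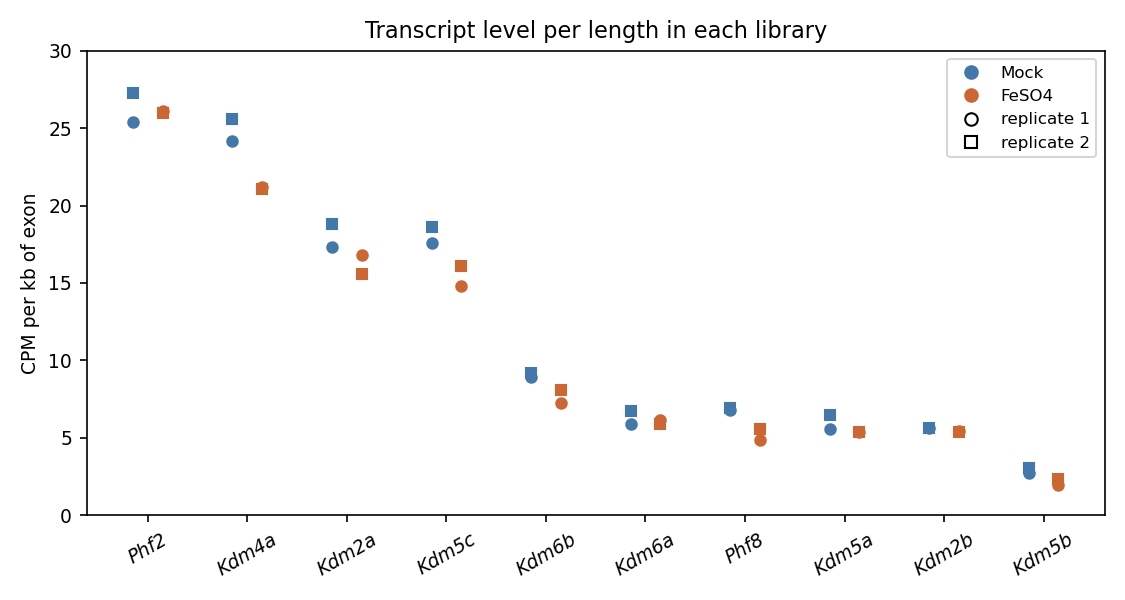
Level of each demethylase in CPM per kb of exon in each library (circles replicate 1, squares replicate 2), ordered by the mean over the 4 libraries. Phf2 and Kdm4a are at 21.1 or more in every library and Kdm5b is at 3.06 or less.

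Exon length was examined because the demethylases are long genes. Of the 10, 8 belonged to the longest of 5 equal length classes of the 12773 tested genes with a length (5.97 to 117 kb), and the other two, Kdm4a (5.78 kb) and Phf2 (5.26 kb), came just under it. Over these genes the median log2 fold change ran from 0.12 in the shortest class to -0.10 in the longest (Spearman's rho of -0.24 over the 11900 genes with a length and a GC content, which are no replicates of each other). In the longest class, 19.9% of genes were called lower and 44.9% had both FeSO4 libraries below both Mock libraries, against 2.82% and 16.5% in the shortest. Of the 8 demethylases in that class, 4 were called lower. The fold changes of Phf8 and Kdm5b lay below the lower quartile of the longest class (-0.28). A length gradient also appeared within Mock, where the median log2 ratio of replicate 2 to replicate 1 ran from -0.05 in the shortest class to 0.07 in the longest. Within FeSO4 it ran from -0.01 to 0.01.

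**Figure D4:**
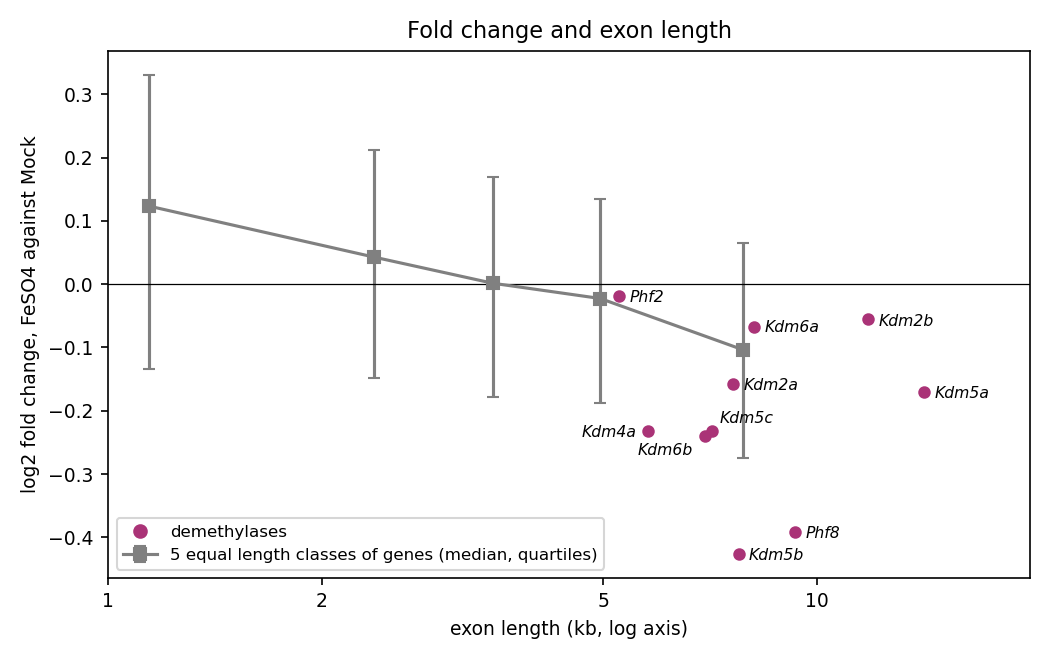
Log2 fold change against exon length in kb (log axis), with medians and quartiles for 5 equal length classes of the 12773 tested genes with a length (gray) and the 10 demethylases (purple). The gray medians run from 0.12 down to -0.10, and Phf8 and Kdm5b lie below the quartile bar of the longest class.

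After the correction for length and GC content, fold changes were -0.30 ± 0.12 for Kdm5b (edgeR adjusted p = 0.0839), -0.21 ± 0.08 for Phf8 (0.0783), -0.09 ± 0.07 for Kdm4a (0.366), -0.06 ± 0.07 for Kdm5c (0.575) and 0.01 ± 0.08 for Kdm6b (0.936). None passed the threshold, 4 of these 5 values were negative, and that of Phf8 had moved from -0.39. With length alone corrected, Phf8 was the 1 gene of the set called, and with GC alone 3 were called (Phf8, Kdm5b and Kdm5a, the last of which was not called without the correction).

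Other genes of the same chemistry and of the opposing methyltransferases were read from lists, beside which the shares over all genes were 10.9% higher and 9.17% lower. Without the filter on low counts, the lists lost their calls apart from 1 higher among the other JmjC demethylases, 1 lower among the further JmjC proteins and 1 higher in the 2-oxoglutarate list. Among 13 other JmjC histone demethylases, 1 rose and 1 fell, with a median log2 fold change of -0.07 that was -0.22 without Mock replicate 1 and 0.02 without Mock replicate 2. Riox2 (MINA53), which hydroxylates a ribosomal protein and has been linked to lysine 9 of H3, was at 47.91 and 47.23 CPM in the Mock libraries against 60.45 and 59.92 CPM with FeSO4 (log2 fold change 0.34; edgeR adjusted p = 0.00585). Kdm3b, a lysine 9 demethylase, was at 129.0 and 135.4 CPM in the Mock libraries against 117.0 and 112.7 CPM with FeSO4 (-0.20; 0.0431). With the correction, Riox2 kept its call and Kdm3b lost it (adjusted p = 0.848), and Kdm3b was also lost without Mock replicate 2 and without either FeSO4 replicate. The remaining 11 (Kdm3a, Jmjd1c, Kdm4b, Kdm4c, Kdm4d, Kdm5d, Kdm7a, Kdm8, Riox1, Uty and Hr) did not pass, and Hr and Kdm4d, with values of -0.72 and 0.88, were below 5 CPM.

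Of 7 further JmjC proteins tested, 1 rose and 1 fell, and both kept their calls with the correction, at log2 fold changes of 0.51 for Jarid2 and -0.245 for Hif1an. Jarid2, which has no demethylase activity and is a cofactor of PRC2, rose from 51.91 and 56.41 CPM to 66.26 and 69.08 CPM (log2 fold change 0.32; edgeR adjusted p = 0.00869), a call lost without Mock replicate 1 (adjusted p = 0.0731) and without the filter. Hif1an, the asparagine hydroxylase FIH that restrains HIF activity, fell from 60.9 and 62.6 CPM to 46.76 and 47.71 CPM (-0.39; 0.00246). Tyw5 (0.35) did not pass, and Jmjd6 (0.14) did not pass and was called higher with the correction (0.28; adjusted p = 0.0262). None of the 7 genes of FAD-dependent demethylases and their CoREST partners was called by edgeR or DESeq2, and 1, Hdac2 (0.17), had an unadjusted p under 0.05 in each. Kdm1a (LSD1) was at 0.11, and with the correction it was called at 0.21 (adjusted p = 0.0398).

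The methyltransferases of lysine 4 of H3, which write the mark that KDM5 enzymes remove, were lower in 5 of 6 genes. Kmt2c was at 119.0 and 137.0 CPM in the Mock libraries against 82.14 and 95.2 CPM with FeSO4 (log2 fold change -0.53; edgeR adjusted p = 0.000339). Kmt2a, Kmt2b, Kmt2d and Setd1b fell by 0.29 to 0.35 on the log2 scale, and Setd1a was at -0.23 (adjusted p = 0.0934). These genes have long exon lengths (6.8 to 20.3 kb with the exons of all transcripts of a gene merged). With the length and GC correction, 1 of the 6 was called lower, Kmt2c at -0.26 (adjusted p = 0.0156), and the median of the list moved from -0.31 to 0.02. Without FeSO4 replicate 1, and likewise without Mock replicate 2, 3 of the 6 were called lower, with Kmt2c and Kmt2d among them in both cases. Without Mock replicate 2, Setd1b was at -0.22 and lost its call (adjusted p = 0.138). Without the filter 0 of the 6 were called (6 lower at an unadjusted p under 0.05 by edgeR).

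PRC2, which writes lysine 27 methylation, had 4 of 10 genes higher and 1 lower, with a median log2 fold change of 0.13. Aebp2, Phf19, Suz12 and Eed rose by 0.20 to 0.31, and Ezh1, the less active catalytic subunit, fell by 0.28. Ezh2, the main catalytic subunit, was at 0.10 and did not pass. With the correction, Aebp2 (0.27) and Phf19 (0.43) kept their calls and the others did not. Without FeSO4 replicate 1, edgeR called 0 of the 10 (4 higher and 1 lower at an unadjusted p under 0.05), and without Mock replicate 2, 2 were higher and 1, Phf1 (-0.32), was lower, while Ezh1 lost its call (adjusted p = 0.121). Without Mock replicate 1 the counts were 1 higher and 1 lower (Ezh1), with Suz12 at 0.12 (adjusted p = 0.26), and without FeSO4 replicate 2 they were 2 higher and 2 lower (Ezh1 and Phf1). Scaling by library size alone gave 1 higher and 2 lower, and upper quartile scaling gave 2 higher and 1 lower.

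In the remaining lists of histone enzymes, calls were few. Ncoa6 fell (log2 fold change -0.24) among 6 genes of the lysine 4 methyltransferase core and KDM6A complex, and Suv39h1 rose (0.29) among 6 lysine 9 methyltransferases. Skp1 rose (0.21) among 8 genes of the variant complex that KDM2B recruits. With the correction, Suv39h1 (0.37) kept its call and Ncoa6 and Skp1 did not. The call of Suv39h1 was lost without FeSO4 replicate 1 (adjusted p = 0.206) or Mock replicate 2 (0.1), that of Ncoa6 without FeSO4 replicate 2 (0.22) or Mock replicate 2 (0.168), and that of Skp1 without any 1 of the 4 libraries (0.0507 to 0.135). The 6 lysine 36 methyltransferases gave 0 calls by edgeR and by DESeq2 (2 lower at an unadjusted p under 0.05). They had 2 lower calls with library size alone, 1 with upper quartile scaling and 2 with GC alone corrected. With the replicate block 3 were called lower. With length alone corrected 2 were called higher, as were 2 with the block and the length and GC correction. Nsd1 was called higher with the correction (0.21), and Nsd3 was called lower without Mock replicate 1 (-0.28) or FeSO4 replicate 2 (-0.26). The 3 lysine 20 methyltransferases gave 0 calls by either tool, with 1 higher and 1 lower at an unadjusted p under 0.05, and Kmt5b was called lower without FeSO4 replicate 2 (-0.32). Dpy30 of the lysine 4 core complex was called higher without FeSO4 replicate 2 (0.31), and Ring1 of the KDM2B complex was called lower without Mock replicate 2 (-0.33). With library size alone, the KDM2B complex had 0 higher and 2 lower calls, the lysine 9 list 0 calls and the lysine 20 list 1 lower. With upper quartile scaling the KDM2B complex had 1 higher and 1 lower.

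Enzymes that supply 2-oxoglutarate or handle the acids that compete with it had 4 of 13 genes higher and none lower. Idh1, the cytosolic isocitrate dehydrogenase that makes 2-oxoglutarate, rose from 12.96 and 13.03 CPM to 18.83 and 21.72 CPM (log2 fold change 0.64; edgeR adjusted p = 0.00169). Idh3a, Idh2 and the succinate dehydrogenase subunit Sdhb rose by 0.22 to 0.24. With the correction, 3 of the 13 were called higher, Idh1, Idh2 and Sdhb, and without FeSO4 replicate 1, without Mock replicate 2 or with library size alone there was 1.

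**Figure D5:**
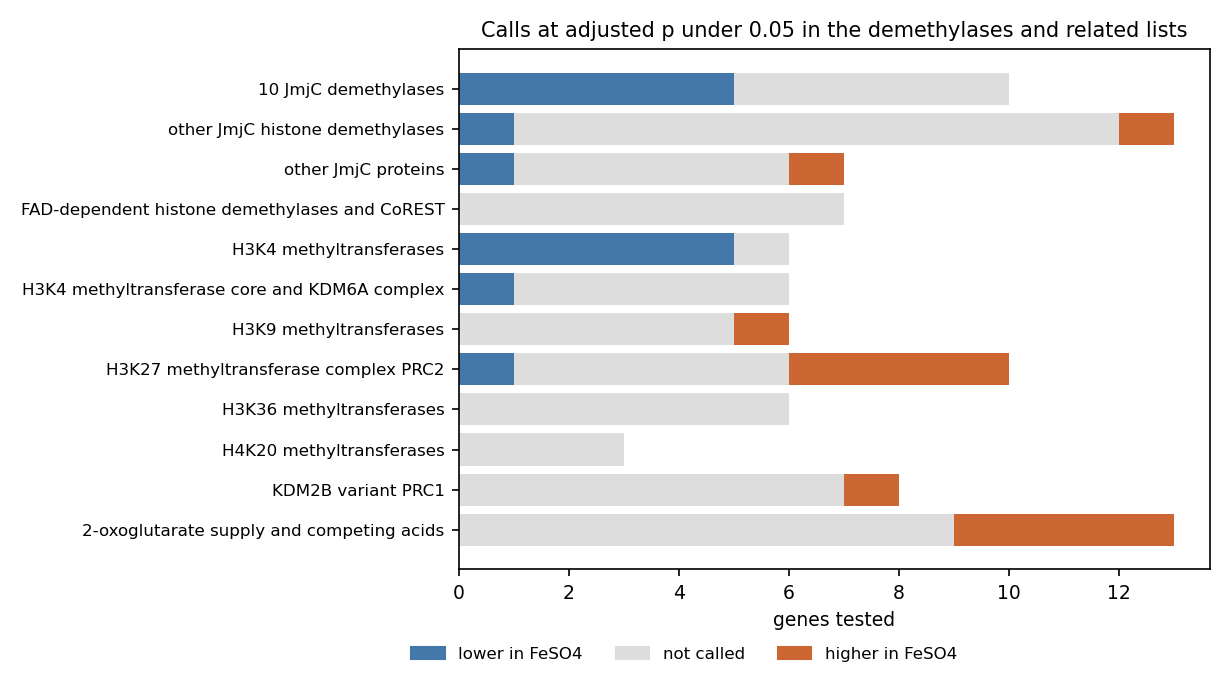
Number of genes tested in each list (bar length), split into those lower in FeSO4 (blue), not called (gray) and higher (orange) at an adjusted p under 0.05. Lower calls numbered 5 among the 10 demethylases, 5 among the 6 lysine 4 methyltransferases and 1 in each of 4 further lists, and 4 genes each were higher in PRC2 and in the 2-oxoglutarate list.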

How the data were processed

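RNA-seq counts of 4 libraries were used, 2 Mock and 2 FeSO4, grouped by their labels. Per Ensembl gene, the authors deposited raw, unnormalized counts of reads. The study's methods name STAR, the build mm9 and DESeq, whereas the submitters' processing notes list Trim Galore 0.6.7, STAR 2.7.9a, featureCounts and mm10, and the table ends in total rows of the kind another counter writes. The counter, its strand setting and the annotation were therefore not settled. The 5 rows of unassigned reads (4.36 to 6.03% without a feature, 3.78 to 3.91% ambiguous, 0.802 to 0.988% of low alignment quality, 1.8 to 2.31% unaligned and 4.27 to 4.62% with more than 1 alignment, each of all reads in the table) did not enter library sizes or tests. Positions and promoter windows are from RefSeq (GRCm38.p6). Exon lengths (exons of all transcripts of a gene merged) and GC content (of the longest coding transcript) are from GENCODE M1 (NCBIM37). Both were available for 11900 of 13732 tested genes and 10 of the 10 demethylases. Genes without them were not corrected.

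The main test was run with edgeR 4.0.16 under R 4.3.3 (filterByExpr, TMM scaling, quasi-likelihood F test on group, Benjamini-Hochberg adjustment over 13732 genes). The standard error is the log2 fold change divided by the square root of F. The replicates differed by more than sampling noise (chi-square of 12.12 per degree of freedom in Mock and 9.571 in FeSO4), and the biological coefficient of variation was 8.24%. The fit was tested on simulated data. Alternatives were other scalings, filters, DESeq2 1.42.0, limma-voom 3.58.1, a stricter threshold, the replicate number as a block and each library left out in turn. With 1 library left out, its group kept a single library, and the spread between libraries came from the other group alone. Corrections of fold changes for length and GC (loess with a span of 0.5) and the legacy quasi-likelihood fit were added after the data were seen.

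The demethylases and the lists were chosen with earlier results of these data known. The genes named are the 10 demethylases, all other JmjC demethylases, up to 4 genes of smallest p in each other list, and marker genes. Setd1a, Setd1b, Eed, Ezh2, Phf1, Nsd1 and the sex-linked Xist and Ddx3y were named beyond this rule, after their values were seen. Some marker genes are not reported here.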

Additional observations from a re-analysis of the deposited data

How the results depend on the processing

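The count of 5 demethylases lower in FeSO4 was 0 without the filter on low counts, 0 with the length and GC correction (0 also with the replicate block added), 1 with length alone corrected, 3 with GC alone corrected and 1 at an adjusted p under 0.01. Leaving out 1 library gave 0 to 5 lower calls, and 0 to 1 at the study's threshold. The other scalings and tools gave 4 to 7 lower calls, 7 of them with library size alone, where the median of all genes moved to -0.07 and 13.2% of all genes were called lower (4 with DESeq2, where 8.0% were). No alternative called any of the 10 higher.

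Values below or near 0 changed sign in some fits. Kdm2b was at 0.21 with the length and GC correction, the same with the replicate block, and 0.14 with length alone. Kdm5a was at 0.064 and Kdm6a at 0.062 with length alone. Kdm6b was at 0.014 with the length and GC correction and 0.013 with the block added. Phf2 was at 0.13 with the length and GC correction, also with the block, 0.037 with length alone and 0.046 with GC alone. With 1 library left out, Kdm6a ranged from -0.18 to 0.039 and Phf2 from -0.079 to 0.033. The cause was not tested.

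The replicate number as a block left 5 demethylases lower and moved the calls over all genes to 1580 lower and 1847 higher. In the lists it added 3 lower calls among the lysine 36 methyltransferases, 1 among the lysine 20 methyltransferases, 2 in the KDM2B complex and 1 among the other JmjC demethylases, and 1 higher call each for Hdac2 and Dpy30. The deviations of Mock and FeSO4 replicate 1 from their group means correlated at 0.0293, and the labels do not say that a number pairs the samples. All genes gave 810 lower and 1469 higher calls with the length and GC correction.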
